A study of Mus musculus with 6 samples.

Results

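The mRNA levels of 8 genes of cholesterol synthesis and its control were examined in cultured mouse cerebellar granule cells (GCs) with and without knockdown (KD) of Ythdf2. The genes are Srebf2, Insig1, Hmgcs1, Idi1, Fdft1, Sqle, Lss and Dhcr7, a list of targets or parts of the SREBP2 pathway. The list was chosen with earlier results of these data known, and was matched by gene identifier to the 53421 genes of the count table. All 8 were found, and all 8 were among the 17214 genes that passed the filter on low counts. Each of the 8 had a higher mean after KD, and none passed the adjusted threshold in edgeR's test across all genes, while 1 (Idi1) passed in DESeq2. Of all genes tested, 0.604% passed in edgeR and 8.88% in DESeq2. For 7 of the 8 genes, 1 control library lay near the KD libraries. Genes of cholesterol uptake were not analysed here.

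The series holds 6 RNA-seq libraries of GCs from C57BL/6 pups of postnatal day 8 with no engineered allele. The cells were dissociated from the cerebellum, grown in Neurobasal A with B27, and infected with a lentivirus that carried an shRNA to Ythdf2 (shYthdf2) or a control shRNA (shCtrl). Puromycin was used to select infected cells in both groups, per the study's methods. The sample names carry the numbers 1, 2 and 4 in each group, and these numbers are used for the replicates here. The submitted labels contradict each other: the titles and genotype entries call the libraries with KD names wild type and the libraries with control names KD. The groups used here follow the sample names. The group means in the study's own gene listing matched these groups for 923 of 923 genes, and for 0 with the groups exchanged. Every direction given below would turn if the titles were right. Only 1 shRNA to Ythdf2 was sequenced.

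The libraries held between 17246821 and 21546595 counted reads. YTHDF2 binds m6A-modified mRNA and promotes its decay. Ythdf2 itself was measured at 499.6, 401 and 499.7 normalized counts (counts scaled to a common library size of 18917881) in shYthdf2 replicates 1, 2 and 4, and at 617, 839 and 627 in shCtrl. All 3 shYthdf2 libraries were below all 3 shCtrl libraries. The mean was 67.3% of that in shCtrl, with a log2 fold change of -0.57 (SE 0.16) and an adjusted p of 0.125 in edgeR's quasi-likelihood test and 0.0392 in DESeq2. The replicate 2 libraries stood apart from the others. On the first principal component, which held 44.1% of the variance, shCtrl replicate 2 scored -30.3 beside -37.6 to -19.6 for the shYthdf2 libraries and 52.4 and 56.7 for the other shCtrl libraries. The labels do not tie the replicate numbers to a day or a batch. Replicates 1 and 4 were also far closer to each other, with a chi-square per degree of freedom of 4.64 for shCtrl and 3.34 for shYthdf2, than either was to replicate 2, with 32.9 to 54.8. Results are therefore given with and without these libraries.

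Animal cells make cholesterol from acetyl-CoA in a long chain of reactions that runs through mevalonate, isoprenoids and squalene to lanosterol and then to cholesterol. SREBP2, the product of Srebf2, is held in the endoplasmic reticulum by SCAP and the INSIG proteins when sterols are plentiful. When sterols fall, it is carried to the Golgi, cut by the site-1 and site-2 proteases, and enters the nucleus, where it turns on the genes of the pathway together with NF-Y and Sp1. In the brain cholesterol is made locally, since the blood-brain barrier keeps out the circulating lipoproteins, and oligodendrocytes and astrocytes are known as strong producers.

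The promoters were searched for letters through which this control is known to act. RefSeq (GRCm38.p6) windows of 250 bases before to 50 after a start site were at hand for 6 of the 8 members, Sqle and Fdft1 being the others, and Dhcr7 had 3 windows, a match in any of which was counted. The windows were searched on both strands for TCACCCCA, a form of the sterol regulatory element (SRE) that SREBP2 binds, for CCAAT, bound by NF-Y, and for GGGCGG, the GC box bound by Sp1. The letters of the motifs did not overlap each other in the sequences shown. TCACCCCA was found in 2 of the 6 members, Hmgcs1 and Srebf2, each with 1 window, and in 1.56% of the 32851 promoters of the table. The members had 8 windows in all. CCAAT was found in 6 of these 8 windows, at least 1 for each of the 6 members, and in 37.4% of all promoters. GGGCGG was found in 7 of the 8 windows, again at least 1 for each member, and in 35.7% of all promoters. The 250 bases before the start are shown for the enzyme genes with the largest differences between the groups, Hmgcs1 and Idi1, and for Srebf2, the regulator, with the smallest. Capitals mark the 3 motifs on either strand, so that CCAAT can appear as ATTGG and GGGCGG as CCGCCC, and all 3 are on the + strand.
Hmgcs1, chr13:119690101-119690350: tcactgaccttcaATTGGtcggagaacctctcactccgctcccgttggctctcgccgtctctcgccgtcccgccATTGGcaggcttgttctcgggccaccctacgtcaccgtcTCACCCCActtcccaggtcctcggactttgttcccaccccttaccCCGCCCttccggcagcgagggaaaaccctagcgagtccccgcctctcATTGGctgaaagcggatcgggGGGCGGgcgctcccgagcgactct
Idi1, chr13:8885356-8885605: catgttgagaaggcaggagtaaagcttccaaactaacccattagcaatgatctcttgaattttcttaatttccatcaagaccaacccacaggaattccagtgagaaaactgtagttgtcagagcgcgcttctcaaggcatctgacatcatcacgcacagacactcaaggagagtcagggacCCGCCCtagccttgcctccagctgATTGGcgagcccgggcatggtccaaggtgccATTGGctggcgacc
Srebf2, chr15:82147019-82147268: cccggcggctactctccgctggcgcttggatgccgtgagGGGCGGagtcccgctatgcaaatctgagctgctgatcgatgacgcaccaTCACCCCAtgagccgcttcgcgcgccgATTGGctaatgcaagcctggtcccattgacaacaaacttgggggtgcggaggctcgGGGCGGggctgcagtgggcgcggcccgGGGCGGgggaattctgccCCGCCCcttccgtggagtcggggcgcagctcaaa
The SRE letters begin 137 bases before the start of Hmgcs1 and 162 bases before that of Srebf2. Idi1 holds none of these SRE letters in its window, and has CCAAT at 45 and 14 bases and the GC box at 69 bases before its start. The starts here are those of RefSeq. For Idi1 and Srebf2 they lie downstream of the gene starts given below, which come from another annotation (GENCODE). The letters marked for Idi1 thus lie within the gene as annotated there. A match is a run of letters only, and binding was not measured in this series.

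As a group, the 8 members stood higher in the shYthdf2 libraries. The log2 fold changes ran from 0.13 to 0.81 with a median of 0.45, beside a median of 0.01 over all genes tested, and 8 of 8 were above 0 beside 50.8% of all genes. In edgeR's test 0 of the 8 passed an adjusted p of 0.05, and 0.604% of all genes did. At an unadjusted p under 0.05, 4 of the 8 were higher (Hmgcs1, Idi1, Sqle and Lss), where 9.5% of all genes were. For 3 of the 8 (Hmgcs1, Idi1 and Sqle) the lowest shYthdf2 library was above the highest shCtrl library, which held for 12.6% of all genes. The 8 were chosen with earlier results of these data known, and most of them varied together over the libraries. The shares of all genes beside them are therefore a description and not a test. An exact permutation test of 3 against 3 libraries cannot give a two-sided p below 0.1. The summed normalized counts of the 8 members were 41773, 43316 and 41677 in shYthdf2 replicates 1, 2 and 4, and 28247, 39967 and 28304 in shCtrl. The shYthdf2 libraries were close to each other, and shCtrl replicate 2 lay far nearer to them than to the other shCtrl libraries.

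**Figure D1:**
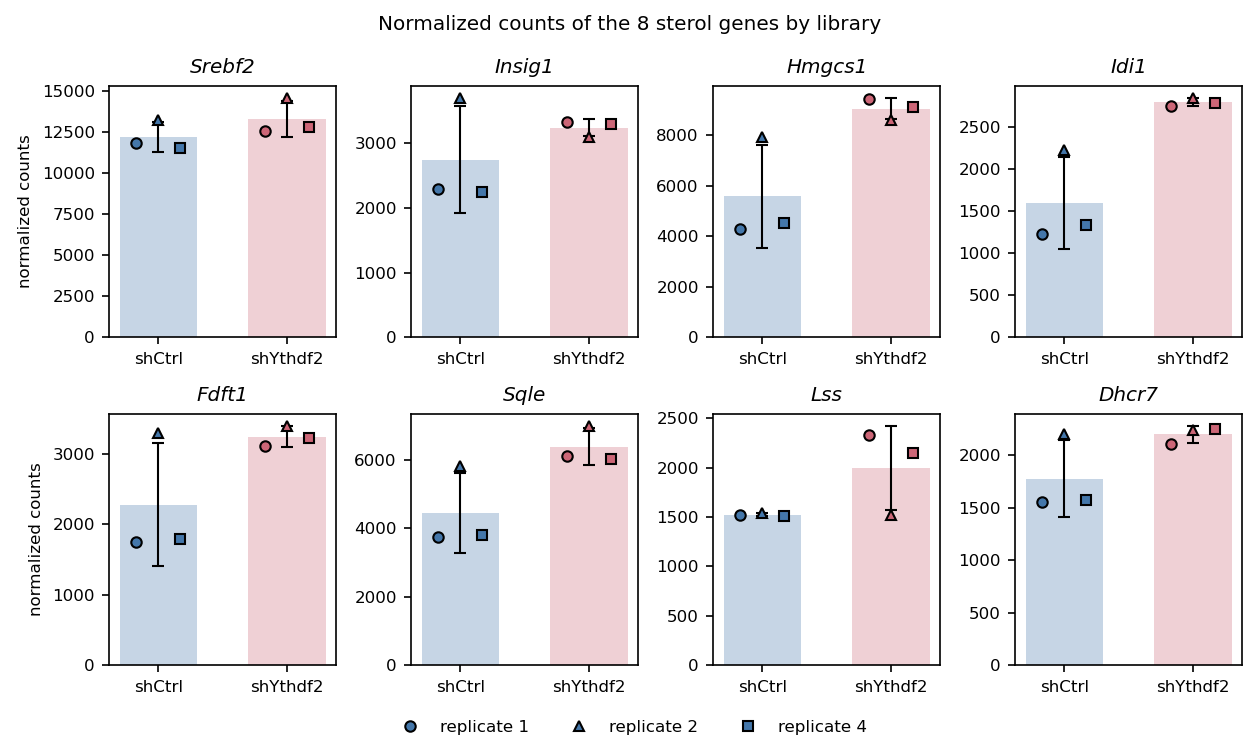
Normalized counts (vertical axis, from 0) of each of the 8 genes in the shCtrl and shYthdf2 libraries, with circles, triangles and squares for replicates 1, 2 and 4, bars for the group means and whiskers for the SD (n = 3). In 7 of the panels the shCtrl triangle stands well above or slightly above the other shCtrl points, and in the Lss panel the shYthdf2 triangle drops to the level of shCtrl.

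Srebf2 (ENSMUSG00000022463), the gene of the SREBP2 transcription factor, lies on the + strand at chr15:82147181-82205379 (GRCm38). It was measured at 12570.1, 14595 and 12847 normalized counts in shYthdf2 replicates 1, 2 and 4, and at 11868, 13241 and 11554 in shCtrl. The groups overlapped, with replicate 2 the highest library in each group. The mean of 13337 ± 1098 (SD, n = 3) was 109% of the 12221 ± 897 in shCtrl, with a log2 fold change of 0.13 (SE 0.11, edgeR adjusted p = 0.564), the smallest difference of the 8. The intron that hosts Mir33, a microRNA against sterol export genes, belongs to Srebf2, and Mir33 itself had 0 to 2 counts a library.

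Insig1 (ENSMUSG00000045294, chr5:28071363-28078662, + strand) encodes a sterol-sensing anchor that holds the SREBP2 precursor in the endoplasmic reticulum, and is itself a target of SREBP2. Its normalized counts were 3337, 3102 and 3296 in shYthdf2 replicates 1, 2 and 4, and 2293, 3704 and 2248 in shCtrl. The highest of the 6 libraries was shCtrl replicate 2, at 163% of the mean of the other shCtrl libraries, so the groups overlapped. The means were 3245 ± 126 and 2749 ± 828, or 118% of shCtrl, and the log2 fold change of 0.24 (SE 0.20) had an edgeR adjusted p of 0.539. Replicates 1 and 4 differed between the groups by 0.54 and 0.55 on the log2 scale, and replicate 2 by -0.26.

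Hmgcs1 (ENSMUSG00000093930, chr13:119690379-119708260, + strand) encodes the cytosolic HMG-CoA synthase, which starts the committed branch toward mevalonate. It was measured at 9440.4, 8609 and 9099 normalized counts in shYthdf2 replicates 1, 2 and 4, and at 4266, 7938 and 4509 in shCtrl. All 3 shYthdf2 libraries were higher than all 3 shCtrl libraries, although shCtrl replicate 2 fell short of the lowest of them by little. The mean was 162% of that in shCtrl, 9049 ± 418 against 5571 ± 2054, and the log2 fold change was 0.70 (SE 0.23, edgeR adjusted p = 0.161). The spread in shCtrl came from replicate 2, which stood at 181% of the mean of replicates 1 and 4.

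Idi1 (ENSMUSG00000058258, chr13:8885501-8892451, + strand) encodes isopentenyl-diphosphate isomerase, which interconverts the isoprenoid building blocks. Its normalized counts were 2754, 2847 and 2789 in shYthdf2 replicates 1, 2 and 4, and 1233, 2229 and 1329 in shCtrl. The groups did not overlap, and the shYthdf2 libraries were nearly level. With means of 2797 ± 46.7 and 1597 ± 549, or 175% of shCtrl, Idi1 had the largest difference of the 8, with a log2 fold change of 0.81 (SE 0.22). It missed the threshold in edgeR (adjusted p = 0.114) and passed it in DESeq2 (adjusted p = 0.0133), where 1 of the 8 members and 8.88% of all genes tested passed. With no filter on low counts edgeR also gave an adjusted p under the threshold for Idi1 (0.0401), again as 1 of 8, and 1.98% of genes passed. Over all alternatives the adjusted p of Idi1 ran from 1.38e-11 to 0.37. The lowest value came from edgeR without replicate 2 in both groups, where 52.7% of all genes tested passed.

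Fdft1 (ENSMUSG00000021273, chr14:63145150-63179578, - strand) encodes squalene synthase, the first enzyme that commits isoprenoids to sterols. It was measured at 3114, 3407 and 3228 normalized counts in shYthdf2 replicates 1, 2 and 4, and at 1754, 3297 and 1793 in shCtrl. The groups overlapped only through shCtrl replicate 2, which exceeded 2 of the shYthdf2 libraries and stood at 186% of the mean of the other shCtrl libraries. The mean was 142% of that in shCtrl, with a log2 fold change of 0.51 (SE 0.24, edgeR adjusted p = 0.288). Fdft1 overlaps Ctsb on the opposite strand by 774 bases, and Ctsb had 3768 to 6647 counts a library. The counting is not stated to use strand, so reads in that stretch cannot be told apart.

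Sqle (ENSMUSG00000022351, chr15:59315077-59331192, + strand) encodes squalene epoxidase, a rate-limiting enzyme after the formation of squalene. Its normalized counts were 6123, 6994 and 6013 in shYthdf2 replicates 1, 2 and 4, and 3753, 5808 and 3790.1 in shCtrl. The groups did not overlap, by a narrow margin at shCtrl replicate 2. The means of 6377 ± 538 and 4450.4 ± 1176 gave 143% of shCtrl and a log2 fold change of 0.52 (SE 0.18, edgeR adjusted p = 0.179). Sqle kept one of the larger differences within replicate 2, at 0.27 on the log2 scale, beside 0.71 and 0.67 in replicates 1 and 4.

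Lss (ENSMUSG00000033105, chr10:76531588-76557138, + strand) encodes lanosterol synthase, which folds oxidosqualene into the first sterol. It was measured at 2329, 1519 and 2152 normalized counts in shYthdf2 replicates 1, 2 and 4, and at 1523, 1543 and 1508 in shCtrl. Here the shCtrl libraries were level, and shYthdf2 replicate 2 was the library apart, at 67.8% of the mean of the other shYthdf2 libraries and inside the range of shCtrl. The mean was 131% of that in shCtrl, with a log2 fold change of 0.39 (SE 0.16, edgeR adjusted p = 0.228). Without shYthdf2 replicate 2 the log2 fold change was 0.55 and the adjusted p 0.032. Lss was then the only member to pass, 1 of 8, where 4.7% of all genes tested did. Its adjusted p ran from 6.23e-08 to 0.579 over all alternatives. The lowest value came from edgeR without replicate 2 in both groups, where 52.7% of all genes tested passed.

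Dhcr7 (ENSMUSG00000058454, chr7:143823145-143848410, + strand) encodes 7-dehydrocholesterol reductase, which carries out the final step of one route to cholesterol. Its normalized counts were 2106, 2242 and 2253 in shYthdf2 replicates 1, 2 and 4, and 1555, 2207 and 1572 in shCtrl. The groups overlapped because shCtrl replicate 2 exceeded shYthdf2 replicate 1. The means of 2200.3 ± 82.1 and 1778 ± 371 gave 124% of shCtrl, with a log2 fold change of 0.31 (SE 0.15, edgeR adjusted p = 0.299).

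The replicate numbers were assumed to pair the libraries, which the labels do not state, and the difference was also taken within each number. The median log2 difference of the 8 members was 0.66 in replicate 1, 0.08 in replicate 2 and 0.61 in replicate 4. In replicate 1 and in replicate 4 all 8 members were higher in shYthdf2. Within replicate 2, Insig1 and Lss were lower in shYthdf2 (-0.26 and -0.02), and Idi1 kept the largest difference of the 8, at 0.35. With the replicate number as a block, 0 of 8 members passed in edgeR, where 1.35% of all genes did, and 6 of 8 were higher at an unadjusted p under 0.05, where 15.4% of all genes were. The lowest adjusted p values with the block were 0.0595 for Sqle, 0.0624 for Idi1 and 0.0931 for Hmgcs1.

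**Figure D2:**
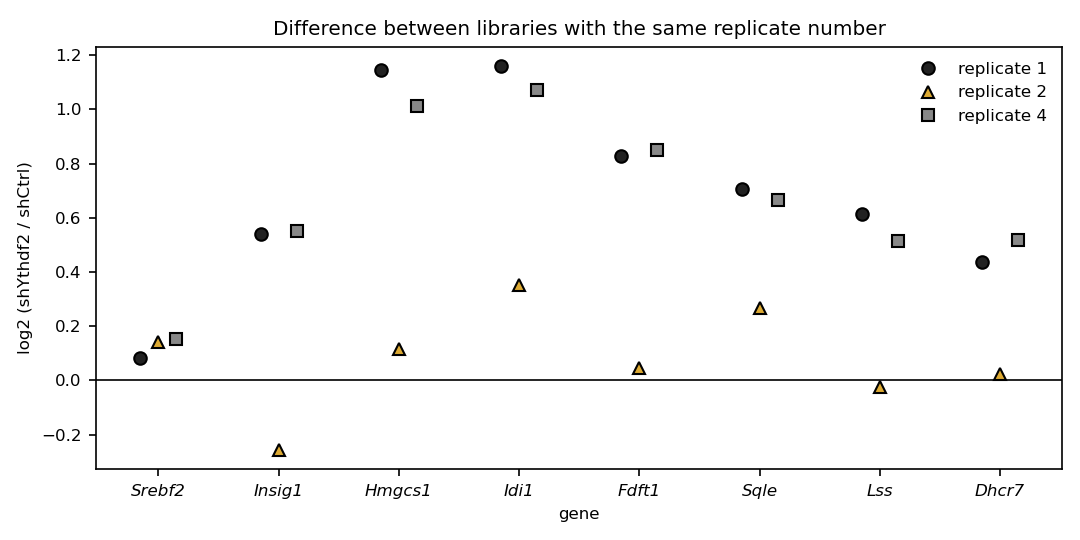
The log2 ratio of normalized counts in shYthdf2 over shCtrl (vertical axis) for each of the 8 genes, taken between libraries with the same replicate number. Replicates 1 and 4 lie close together and above 0 for all genes, with the highest value at 1.16 for Idi1, and replicate 2 lies between -0.26 and 0.35.

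The calls turned on shCtrl replicate 2. Without it 6 of 8 members passed an adjusted p of 0.05 in edgeR, where 18.3% of all genes tested did, and the median log2 fold change of the members was 0.64. The 6 were Idi1 (log2 fold change 1.13), Hmgcs1 (1.04), Fdft1 (0.87), Sqle (0.76), Insig1 (0.52) and Dhcr7 (0.49). Lss and Srebf2 missed the threshold there, with adjusted p values of 0.171 and 0.21. When replicate 2 was left out of both groups, 8 of 8 passed with log2 fold changes from 0.11 to 1.11, beside 52.7% of all genes, so a call said little about the members in that setting. The replicate 2 library was the highest of the shCtrl group for 8 of 8 members and for 44.8% of all genes tested.

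The members varied together to different degrees. Over the 6 libraries, Pearson's r between the log2 normalized counts ran from 0.68 to 0.996 among the 7 members other than Lss. It was highest for Fdft1 with Dhcr7 (0.996) and for Hmgcs1 with Idi1 (0.99). For Lss with the other members it ran from -0.02 to 0.63. These are descriptions over 6 points that share 2 groups and the replicate numbers, and no test was made of them.

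Per length of transcript, Srebf2 and Hmgcs1 were the most abundant members in the shYthdf2 libraries, at 139 ± 11.4 and 138 ± 6.37 CPM (counts scaled to library size) per kilobase (SD, n = 3), followed by Sqle at 122 ± 10.3. Those values overlapped and do not give an order among the first 3. Insig1 (63.6 ± 2.46) stood below them, and Idi1 (48.8 ± 0.816) and Fdft1 (46.4 ± 2.11), which overlapped in their spread, and then Dhcr7 (41.3 ± 1.54) followed. Lss was the lowest at 22.7 ± 4.82. In shCtrl the level of Srebf2, 127 ± 9.34, was above those of Sqle (85.3 ± 22.5) and Hmgcs1 (85.0 ± 31.3), which were not apart. The shCtrl levels of Insig1 (53.9 ± 16.2), Dhcr7 (33.4 ± 6.97), Fdft1 (32.6 ± 12.6) and Idi1 (27.9 ± 9.59) came next, with spreads that overlapped from each to the next, and Lss was again the lowest at 17.3 ± 0.201.

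GGACT is the most common letter form of the m6A consensus, and YTHDF2 reads that mark. It occurred 11 times in the Lss transcript (2.36 per kilobase), 7 times in Srebf2 (1.38), 6 times in Fdft1 (1.62), 4 times in Dhcr7 (1.42), 3 times each in Insig1 (1.11) and Sqle (1.09), 2 times in Hmgcs1 (0.577) and 0 times in Idi1. The median over 13719 tested protein-coding genes was 1.06 per kilobase, with 0.321 and 2.07 at the 10th and 90th percentiles. The members with the largest differences, Idi1 and Hmgcs1, had the fewest of these letters. The m6A mark itself is not analysed here.

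The other enzymes of the same pathway were read from a list of 13 genes (Acat2, Mvk, Pmvk, Mvd, Fdps, Cyp51, Tm7sf2, Lbr, Msmo1, Nsdhl, Hsd17b7, Ebp and Sc5d), and all 13 were tested. Of these, 12 had a log2 fold change above 0 and 1 below, with a median of 0.41. None of the 13 passed an adjusted p of 0.05 in edgeR with or without the block. At an unadjusted p under 0.05, 5 were higher and 1 was lower, beside 9.5% and 10.6% of all genes. Without shCtrl replicate 2 the number that passed the adjusted threshold was 9, in a setting that called 18.3% of all genes. Their summed normalized counts were 18054, 19477 and 18319 in shYthdf2 replicates 1, 2 and 4, and 12329.9, 18473 and 12335 in shCtrl. As for the 8 members, shCtrl replicate 2 lay with the shYthdf2 libraries, here inside their range. Sc5d, a desaturase of the late steps, had 1311, 1254 and 1149 normalized counts in shYthdf2 and 869, 1096 and 823 in shCtrl, with a log2 fold change of 0.41 (SE 0.13, edgeR adjusted p = 0.152). Pmvk, which phosphorylates phosphomevalonate, stood against the rest. It had 864, 1021 and 929 normalized counts in shYthdf2 and 1148, 1199 and 1256 in shCtrl, so that all shYthdf2 libraries were below all shCtrl libraries, with a log2 fold change of -0.36 (SE 0.10, edgeR adjusted p = 0.129). Fdps, named because its value is uncertain, had only 24.8 to 86.8 normalized counts, and another annotated gene on the same strand covers 7512 bases of it.

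**Figure D3:**
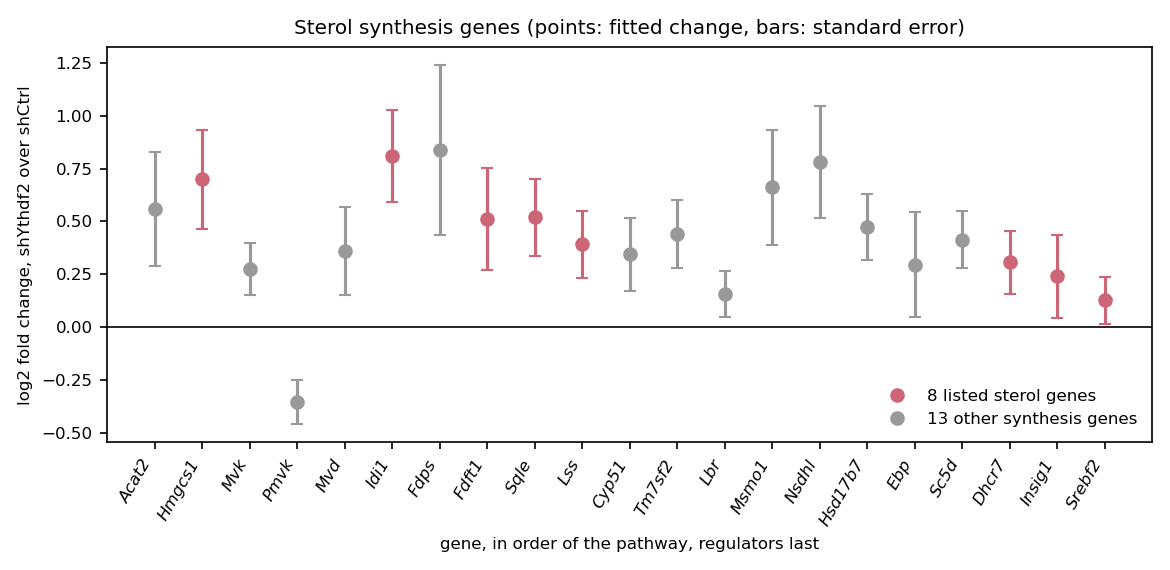
The edgeR log2 fold change of shYthdf2 over shCtrl (vertical axis, bars are standard errors) for the 8 members in red and the 13 other sterol synthesis genes in grey, placed along the pathway with the regulators Insig1 and Srebf2 last. All genes but Pmvk, at -0.36, lie above 0, from 0.13 to 0.84.

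Genes of the machinery that moves, cuts and degrades around SREBP2 were divided in direction. Among 8 genes of SREBP processing and sterol-regulated degradation (Scap, Mbtps1, Mbtps2, Insig2, Srebf1, Rnf139, Erlin1 and Erlin2), 4 had a log2 fold change above 0 and 4 below, with a median of -0.00106. None passed in edgeR and 1 (Mbtps2) passed in DESeq2, where 8.88% of all genes tested did. At an unadjusted p under 0.05 there were 2 higher and 1 lower, beside 9.5% and 10.6% of all genes. No test was made of a difference between this list and the sterol genes. Mbtps2, the site-2 protease that releases active SREBP, had 1366, 1395 and 1324 normalized counts in shYthdf2 and 877, 1129 and 914 in shCtrl, with no overlap, a log2 fold change of 0.48 (SE 0.12) and an adjusted p of 0.0986 in edgeR and 0.022 in DESeq2. Srebf1, the relative of Srebf2 that drives fatty acid synthesis, had 621, 603 and 699 against 554, 499 and 487, with a log2 fold change of 0.32 (SE 0.12, edgeR adjusted p = 0.189).

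Among 11 fatty acid synthesis genes (Fasn, Acaca, Acly, Acss2, Scd1, Scd2, Elovl5, Elovl6, Fads1, Fads2 and Me1), 7 were above 0 and 4 below, with a median log2 fold change of 0.05 and none past the adjusted threshold in edgeR or DESeq2. The 2 at an unadjusted p under 0.05 were both higher, beside 9.5% of all genes. Fads1, a desaturase of polyunsaturated fatty acids, had 3868, 3301 and 3890.4 normalized counts in shYthdf2 and 2696, 3157 and 2637 in shCtrl (log2 fold change 0.38, SE 0.12, edgeR adjusted p = 0.139). Scd2, the main stearoyl-CoA desaturase of the young brain, had 19620.1, 19307 and 19634 against 7637, 18499 and 7399, with shCtrl replicate 2 near the shYthdf2 libraries as for Hmgcs1 (log2 fold change 0.80, edgeR adjusted p = 0.247).

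Of 11 genes of sterol outflow and transport (Abca1, Abcg1, Abcg4, Nr1h2, Nr1h3, Mylip, Cyp46a1, Soat1, Ch25h, Stard4 and Tmem97), 7 were above 0 and 4 below, with a median log2 fold change of 0.18. None passed the adjusted threshold in edgeR. Of the 11, 1 (Nr1h2) passed in DESeq2 and in edgeR with no filter on low counts, where 8.88% and 1.98% of all genes tested did. At an unadjusted p under 0.05, 2 were higher and 1 was lower, beside 9.5% and 10.6% of all genes. Nr1h2, the sterol receptor LXR beta, had 838, 851 and 861 normalized counts in shYthdf2 and 1464, 1066 and 1419 in shCtrl, without overlap (log2 fold change -0.63, SE 0.14, adjusted p = 0.0755 in edgeR, 0.00467 in DESeq2 and 0.0309 in edgeR with no filter). Cyp46a1, which hydroxylates cholesterol for its exit from neurons, had 1113, 1046 and 1225 against 688, 988 and 611 (log2 fold change 0.56, SE 0.19, edgeR adjusted p = 0.156).

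Most markers of glia were, like the members, lowest in shCtrl replicates 1 and 4. In bulk samples, more cells of a type and more RNA per cell cannot be told apart. The summed normalized counts of 10 oligodendrocyte lineage markers were 15851, 20775 and 16313 in shYthdf2 replicates 1, 2 and 4 and 6089, 20890 and 5844 in shCtrl, and 10 of 10 had a log2 fold change above 0 (median 0.63). Of the 10, 0 passed in edgeR and 10 without shCtrl replicate 2, where 18.3% of all genes did. Those of 8 astrocyte and Bergmann glia markers were 13443, 12379 and 13289 in shYthdf2 and 8856, 15037 and 8996 in shCtrl, with 6 of 8 above 0 and a median of 0.31. Of the 8, 0 passed in edgeR and 7 without shCtrl replicate 2, where 18.3% of all genes did. In DESeq2, 2 passed, Slc1a2 and Aqp4, where 8.88% of all genes tested did. Slc1a2, the glial glutamate transporter, ran the other way, at 931, 1019 and 875 normalized counts in shYthdf2 and 3024, 1571 and 3072 in shCtrl. Its groups did not overlap (log2 fold change -1.44, adjusted p = 0.0552 in edgeR and 5.5e-06 in DESeq2). Aqp4 was higher in shYthdf2 (log2 fold change 0.87, DESeq2 adjusted p = 0.0487). For 6 microglia markers, 5 of which were tested, the sums were 714, 285 and 744 in shYthdf2 and 144, 523 and 133 in shCtrl. In replicate 2 the shYthdf2 sum was below the shCtrl sum. Among these 6, Tmem119 ran the other way there, with 89.9 normalized counts in shYthdf2 replicate 2 and 27.1 in shCtrl replicate 2. As for the sterol genes, the sum in shCtrl replicate 2 was far above those in the other shCtrl libraries in these 3 lists. The part of these cells in the levels of the sterol genes was not tested.

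The other lists differed from that order in part. The 9 granule neuron markers had sums of 133508 to 136443 in shYthdf2 and 136565 to 149595 in shCtrl and a median log2 fold change of 0.05, with 5 above 0 and 4 below. Zic1 made up the largest share of that sum. None of the 9 passed in edgeR and 2 passed in DESeq2, where 8.88% of all genes tested did. Both were lower: Neurod1, at 80.3% of shCtrl, and Cbln1, at 64.1%. Vascular and fibroblast markers were highest in the replicate 2 library of each group, at 6807 and 5498, beside 2105 to 2765 in the others. The sums of 6 GABAergic neuron markers ranged from 6545 to 8691 in shYthdf2 and from 5358 to 6384 in shCtrl, with Gad1 as the largest share. Of these 6, 3 had a log2 fold change above 0 and 3 below, with a median of 0.01. Only Gad1 passed in DESeq2 and in edgeR with the replicate block, where 8.88% and 1.35% of all genes tested did. Progenitor marker sums ranged from 150.3 to 176 in shYthdf2 and from 79.6 to 139 in shCtrl. No list held a gene at 0 in every library. Activity-induced genes, 10 transcription factors and effectors such as Fos and Npas4, ran opposite to the sterol genes. Their sums were 5481, 3425 and 5486 in shYthdf2 and 52852, 13625 and 51665 in shCtrl. Of the 10, 9 were below 0, with a median log2 fold change of -2.71, and 3 passed the adjusted threshold in edgeR. Of all genes tested, 50.8% were above 0 and 0.604% passed in edgeR. The part of the activity genes in the levels of the sterol genes was not tested.

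**Figure D4:**
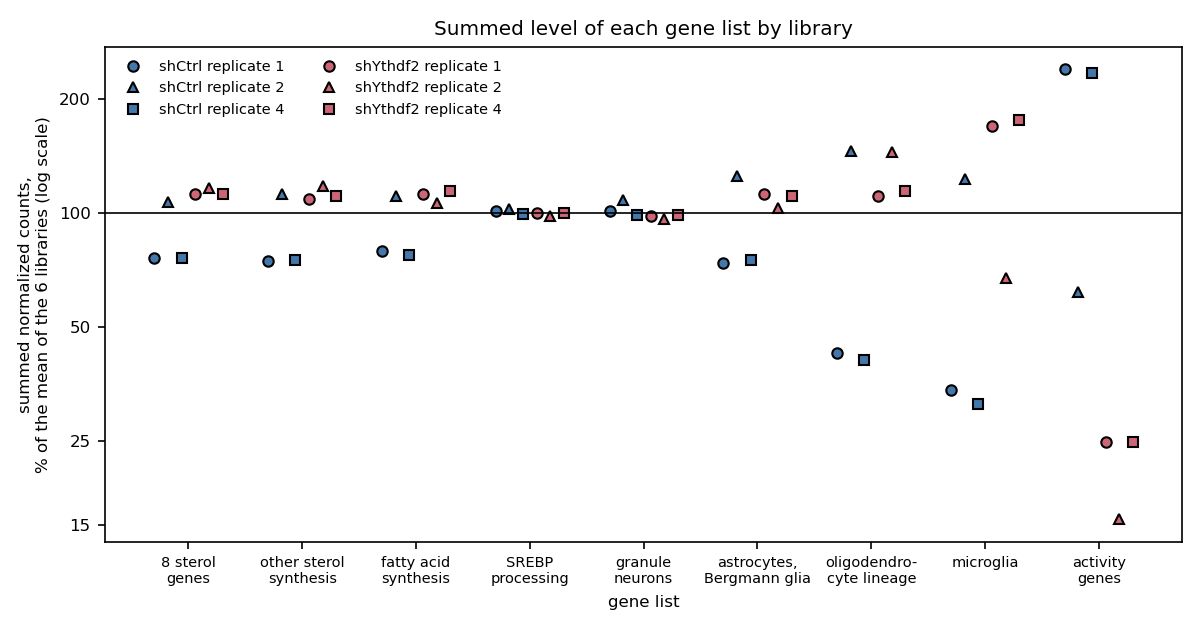
Summed normalized counts of each gene list in each library, as a percentage of the mean of the 6 libraries (vertical axis, log scale), with shCtrl in blue, shYthdf2 in red and the marker shape for the replicate. The 8 sterol genes lie at 75.9% and 76.1% in shCtrl replicates 1 and 4 and at 107% to 116% in the other 4 libraries, the oligodendrocyte markers at 42.6% and 40.9% against 111% to 146%, and the activity genes at 239% and 234% against 15.5% to 61.7%.

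The genes whose levels followed the mean of the 8 members most closely were sought among 12450 genes outside the lists. The 5 with the highest Pearson's r over the 6 libraries were Olfml3 (0.9997), Ablim1 (0.9997), Efnb3 (0.9996), Cntnap5a (0.9994) and Rmnd5a (0.999), and 517 of the candidates reached 0.95. Ablim1, for example, had 5819, 6006 and 5718 normalized counts in shYthdf2 and 1589, 5080.3 and 1603 in shCtrl. Olfml3 had 544, 580.2 and 547 against 149, 472 and 150.1. Each of the 5 was high in the shYthdf2 libraries and in shCtrl replicate 2, as the members were, with log2 fold changes from 0.24 to 1.29 and edgeR adjusted p values from 0.191 to 0.275. The values are a description over 6 libraries and 12450 candidates, and no test was made of them.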

How the data were processed

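RNA-seq was analysed from 6 libraries of cultured GCs, 3 for each shRNA. The deposited values are raw counts of reads per gene, made by the authors. The study's methods give HISAT alignment to GRCm38 and HTSeq counting, whereas the submitters' processing notes name Bowtie 0.12.2 and mm9, and the methods and labels name different library kits. The strand setting is not given in the sources used here. Counts were tested with edgeR 4.0.16 (R 4.3.3): TMM factors, genes kept at a minimum count of 10 and total of 15, quasi-likelihood test of shYthdf2 against shCtrl, Benjamini-Hochberg adjustment over 17214 genes. The filter removed 36207 genes and kept 99.8% of counts. Gene symbols, coordinates and transcripts came from GENCODE M21 (GRCm38), which matched 52403 genes; 785 had identifiers outside the annotation. Lengths are those of the principal transcript. DESeq2 1.42.0, limma-voom 3.58.1, other scalings and filters, a replicate block and the removal of each library were alternatives. An adjusted p that DESeq2 left empty stayed out of its counts.

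Groups followed the sample names, and the hairpin number in them is one of those the study used. The assignment was also checked against the group names in the study's own gene listing, which go with the sample names and not with the titles. Deviations from the group means correlated between libraries of the same number at 0.252, 0.36 and 0.321. Deviations within a group depend on each other, and replicate 2 stood apart in both groups. Such values can therefore arise without pairing by number, and no correlation between libraries of different numbers was taken. The pairing by number remains an assumption. The libraries are described as biological replicates; otherwise p-values measure only the spread between them, which may be technical. Every pair of libraries of a group differed beyond counting noise, by a chi-square per degree of freedom of 3.34 or more. The 8 members and all lists were chosen with earlier results of these data known. Some genes of the pathway lists are not reported here and were left out of every list count. Genes named besides the members were Ythdf2, the 2 smallest unadjusted p values of each further pathway list, any gene of these lists past the adjusted threshold, and the 5 closest patterns (mean of at least 50 normalized counts, log2 with a pseudocount of 0.5). Marker genes named singly were chosen after their values were seen. The scripts were tested on simulated counts with known changes, drawn gene by gene with no pattern shared by the genes of a library. Of changes of 1 on the log2 scale, in either direction, edgeR found 52% and DESeq2 70.6%. The main fitted changes of the 8 members were all smaller than 1. At an adjusted p under 0.05, unchanged genes made up 7.84% of the calls in edgeR and 20.3% in DESeq2.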

Additional observations from a re-analysis of the deposited data

How the results depend on the processing

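No member changed direction under any of the 15 alternatives, of which 2 were chosen after seeing the data: a term for replicate 2, and leaving replicate 2 out of both groups. The 8 members had 0 calls in edgeR, 1 in DESeq2, 1 with no filter, 4 with a term for replicate 2 and from 0 to 8 when libraries were left out. The other sterol synthesis genes had 0 calls, 8 with the term and 0 to 12 with libraries left out. SREBP processing genes had 0, then 1 in DESeq2, 2 with the term and 0 to 4. Fatty acid synthesis genes had 0, then 2 with the term and 0 to 7. Sterol outflow genes had 0, then 1 in DESeq2, 1 with no filter, 3 with the term and 0 to 8, with 5 when shCtrl replicate 2 alone was left out. Without shCtrl replicate 2 alone the members had 6 calls, the other sterol synthesis genes 9, the SREBP processing genes 2 and the fatty acid synthesis genes 4. Over all genes the 104 calls became 1320 in DESeq2, 24 in limma-voom, 639 with no filter, 232 with the replicate block and 3799 with the term. With libraries left out they ranged from 0 to 9186, and were 3239 without shCtrl replicate 2 and 829 without shYthdf2 replicate 2. The share of genes called was 0.604% in edgeR, 8.88% in DESeq2, 1.98% with no filter and 18.3% without shCtrl replicate 2. It was 52.7% without replicate 2 in both groups, the setting that gave the top of each range. The 3799 calls with the term were out of 17214 genes. The cause of these shifts in calls was not tested.

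With the replicate block the members had 0 calls, as did each of the other sterol, SREBP processing, fatty acid and outflow lists. The assumed pairing thus changed no call of these genes. RLE size factors, no normalization factor and a minimum of 10 counts in every library also gave 0 member calls. The 3 libraries a group, of which replicate 2 stands apart in both groups, limit the precision of every member's value. For Lss the library apart was shYthdf2 replicate 2. The KD of Ythdf2 mRNA was partial in these counts, and only 1 shRNA to Ythdf2 was sequenced. The study reported lower YTHDF2 protein with its shRNAs by Western blot, which these counts do not measure.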
